A study of Homo sapiens with 24 samples.

Results

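The kinases that phosphorylate serine/arginine-rich splicing factors (SR proteins) were described here through the RNA of 9 genes: the CDC2-like kinases CLK1, CLK2, CLK3 and CLK4, the SR protein kinases SRPK1 and SRPK2, the dual-specificity kinases DYRK1A and DYRK1B, and the pre-mRNA processing kinase PRPF4B. They were chosen by name, and every transcript listed for them was used: 133 of the 188753 transcripts listed, belonging to 9 of 35544 genes. CLK1 has 15 of these transcripts, CLK2 7, CLK3 27, CLK4 15, SRPK1 13, SRPK2 15, DYRK1A 24, DYRK1B 8 and PRPF4B 9. By their annotated class, 62 are coding and 35 carry the retained-intron label. Another 14 are predicted targets of nonsense-mediated decay (the decay class) and 22 are processed transcripts without an open reading frame. The classes were used as labelled. Transcripts labelled retained intron in SRPK2, DYRK1A, DYRK1B and PRPF4B keep no whole intron of their gene's reference coding transcript. For these genes a retained-intron share is a share of that label. Averaged over the libraries, 45 of the 133 reached 1 TPM (transcripts per 1000000) in whole cells and 42 did in the fractionation, while 15 and 6 were listed at 0 in all libraries.

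The study addressed how TAOK2, a kinase its title places in nuclear speckles, coordinates RNA processing in the nucleus. It used A549, a human lung epithelial cell line labelled wild type, and polyA-selected RNA sequenced as paired reads. Whole cells were reverse transfected with an siRNA pool against TAOK2 or a control pool, at 30 nM with Lipofectamine RNAiMAX, or were treated with compound 2, labelled as an inhibitor of TAOK2 kinase, or its DMSO vehicle, in 3 replicates each. The titles of all these whole-cell samples also carry the word mock. In a separate experiment, whose titles lack that word, total, nuclear and cytoplasmic RNA was taken after the same siRNA treatments, in 2 replicates each. For compound 2 the labels state neither a dose nor a duration. Replicates carry batch labels (A to C, or 1 and 2), and nothing says that they were separate cultures, so the p-values measure the spread between these samples, which may be technical.

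SR proteins bind exonic sequences and recruit the spliceosome, and phosphorylation of their arginine/serine-rich tails controls where they reside and how they act. SRPKs phosphorylate them mainly in the cytoplasm, which lets them be imported into the nucleus, and CLKs phosphorylate them further inside the nucleus, releasing them from speckles. CLK transcripts are themselves spliced in alternative ways: skipping of exon 4 shifts the reading frame and removes the catalytic domain, and copies that keep the neighbouring introns are held in the nucleus.

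That exon and its splice sites are shown because CLK transcripts that differ around it, such as CLK1-210, CLK4-203 and CLK3-225, were among those that differed between fractions or under compound 2. Capitals mark exon 4 and lower case marks the 20 intron bases on either side, read from intron-keeping transcripts of GENCODE 29 (GRCh38). For CLK2 only the exon is shown.
CLK1 exon 4, chr2:200860105-200860235, minus strand: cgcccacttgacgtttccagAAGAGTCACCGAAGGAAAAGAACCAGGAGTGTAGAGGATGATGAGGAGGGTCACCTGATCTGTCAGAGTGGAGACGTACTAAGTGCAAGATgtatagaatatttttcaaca
CLK4 exon 4, chr5:178617324-178617454, minus strand: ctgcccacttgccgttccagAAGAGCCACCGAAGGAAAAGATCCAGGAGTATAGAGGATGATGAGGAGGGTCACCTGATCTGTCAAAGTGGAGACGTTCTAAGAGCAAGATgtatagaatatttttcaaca
CLK3 exon 4, chr15:74622100-74622236, plus strand: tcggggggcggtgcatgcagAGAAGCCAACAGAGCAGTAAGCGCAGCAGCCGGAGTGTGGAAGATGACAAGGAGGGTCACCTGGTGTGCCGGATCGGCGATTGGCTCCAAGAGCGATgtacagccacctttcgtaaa
CLK2 exon 4, chr1:155268708-155268795, minus strand: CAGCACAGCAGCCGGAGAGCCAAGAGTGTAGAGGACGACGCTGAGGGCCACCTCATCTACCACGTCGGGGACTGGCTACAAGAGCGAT

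The exon is coding in all 4 genes, and its 91 bases in CLK1, 91 in CLK4, 97 in CLK3 and 88 in CLK2 each leave a remainder of 1 when divided by 3, so its skipping shifts the frame. CLK1 and CLK4 share 85 of 91 bases (93.4%), and the other pairs share between 62.6% and 66.3%. The introns beside it are poor in G and C in both: intron 3 has 1022 bases (32.6% GC) in CLK1 and 1121 (31.9%) in CLK4, and intron 4 has 378 (26.2%) and 395 (30.4%). The transcripts CLK1-210, CLK4-203 and CLK3-226 keep introns 3 and 4. Exon 4 is skipped in CLK1-204, CLK3-204, CLK3-225 and CLK4-210 of the decay class, and in CLK2-205 and CLK4-212, which are classed as processed transcripts. It is also skipped in the coding CLK1-215, CLK3-209, CLK3-211 and CLK3-223. Reads from the shared stretches of CLK1 and CLK4 were divided between transcripts by the authors' quantification, so the levels of their single transcripts are less certain than their gene sums.

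The genes lie on GRCh38 at chr2:200853009-200864744 (CLK1), chr1:155262868-155278491 (CLK2), chr15:74598500-74645414 (CLK3), chr5:178602664-178630615 (CLK4), chr6:35832966-35921342 (SRPK1), chr7:105110704-105399308 (SRPK2), chr21:37365573-37526358 (DYRK1A), chr19:39825350-39834201 (DYRK1B) and chr6:4021267-4064983 (PRPF4B). CLK3, DYRK1A and PRPF4B are on the plus strand and the rest on the minus strand. Protein-coding genes on the opposite strand overlap 5 of them, EDC3 at CLK3 and KMT2E at SRPK2 being the more abundant (10.4 to 25.0 and 23.6 to 58.3 TPM in whole cells). The labels do not state whether the quantification used the strand, and without it reads from the overlaps could not be told apart.

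TAOK2 itself checked the labels: it was at 40.3, 38.2 and 34.3 TPM with control siRNA against 10.6, 12.5 and 8.56 TPM with TAOK2 siRNA in whole cells (limma, adjusted p = 2.3e-05). TAOK2 RNA was also lower under compound 2, at 21.5, 30.7 and 20.5 TPM against 39.7, 40.6 and 37.5 TPM under DMSO. That log2 difference was -0.70 (limma, adjusted p = 0.00135), in a comparison where 51.8% of all genes were lower. In total RNA of the fractionation it was at 9.70 and 5.01 against 3.67 and 2.99 TPM, in nuclei at 15.6 and 9.31 against 9.68 and 6.24, in cytoplasm at 7.63 and 3.37 against 2.41 and 0.728, and none of these passed the test. Nuclear libraries held 36.5% to 42.5% of their TPM in mitochondrial genes, against 8.10% to 13.9% in cytoplasmic and 4.34% to 7.13% in total RNA. Since TPM is a share of a library, gene levels in a fraction are relative to that fraction, whereas ratios between transcripts of a gene are not touched by this. All 8 markers of the lung epithelial line were at 1 TPM or more in every whole-cell group, and 7 of 8 in every fraction. The summed TPM of 5 fibroblast markers, none at 0 in all libraries of a group, was higher with TAOK2 siRNA in the fractionation: 48.2 to 51 against 21.1 to 22.1 in total, 31.4 to 33 against 15 to 17.5 in nuclear and 40 to 47.6 against 17.4 to 19 in cytoplasmic RNA. In whole cells it was 10.7 to 25.3 against 10.9 to 13.8. The 5 leukocyte markers, 1 of them at 0, summed to 1.64 to 8.45 TPM in whole cells and 10.8 to 65.5 in the fractionation, and in nuclei to 16.8 to 27.5 with TAOK2 siRNA against 10.8 to 15.1. The part of either list in the knockdown differences was not tested. In bulk RNA, fewer cells of a kind and less RNA per cell cannot be told apart.

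Under DMSO the kinases spanned a narrow range of gene TPM, which is a level per transcript length. SRPK2 was highest (42.5 ± 3.19 TPM, SD, n = 3), then CLK3 (34.2 ± 1.37), SRPK1 (32.7 ± 2.21), CLK1 (25.8 ± 4.97), CLK2 (23.5 ± 2.34), PRPF4B (20.5 ± 0.782), CLK4 (16.8 ± 2.76), DYRK1A (14.7 ± 0.862) and DYRK1B (13.7 ± 2.11). SRPK2 lay above CLK3 in all 3 libraries without overlap, while CLK3 and SRPK1, SRPK1 and CLK1, CLK1 and CLK2, CLK4 and DYRK1A, and DYRK1A and DYRK1B overlapped. The genes differed more in what their TPM consisted of. Retained-intron transcripts made up 53.0%, 49.1% and 45.0% of CLK1 and 47.4%, 41.8% and 46.8% of CLK4, but 0.204%, 1.365% and 0.903% of SRPK2. PRPF4B was mostly of the decay class, at 76.5%, 66.3% and 70.7%. Its most abundant transcript, PRPF4B-205, carries that class, has the same coding length of 3021 bases as the reference coding transcript PRPF4B-201 and ends 3075 bases further downstream. Transfection with control siRNA, set against DMSO, passed for 0 of the 9 genes in limma (1 at an unadjusted p under 0.05, DYRK1B; 6.44% of all genes passed).

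**Figure D1:**
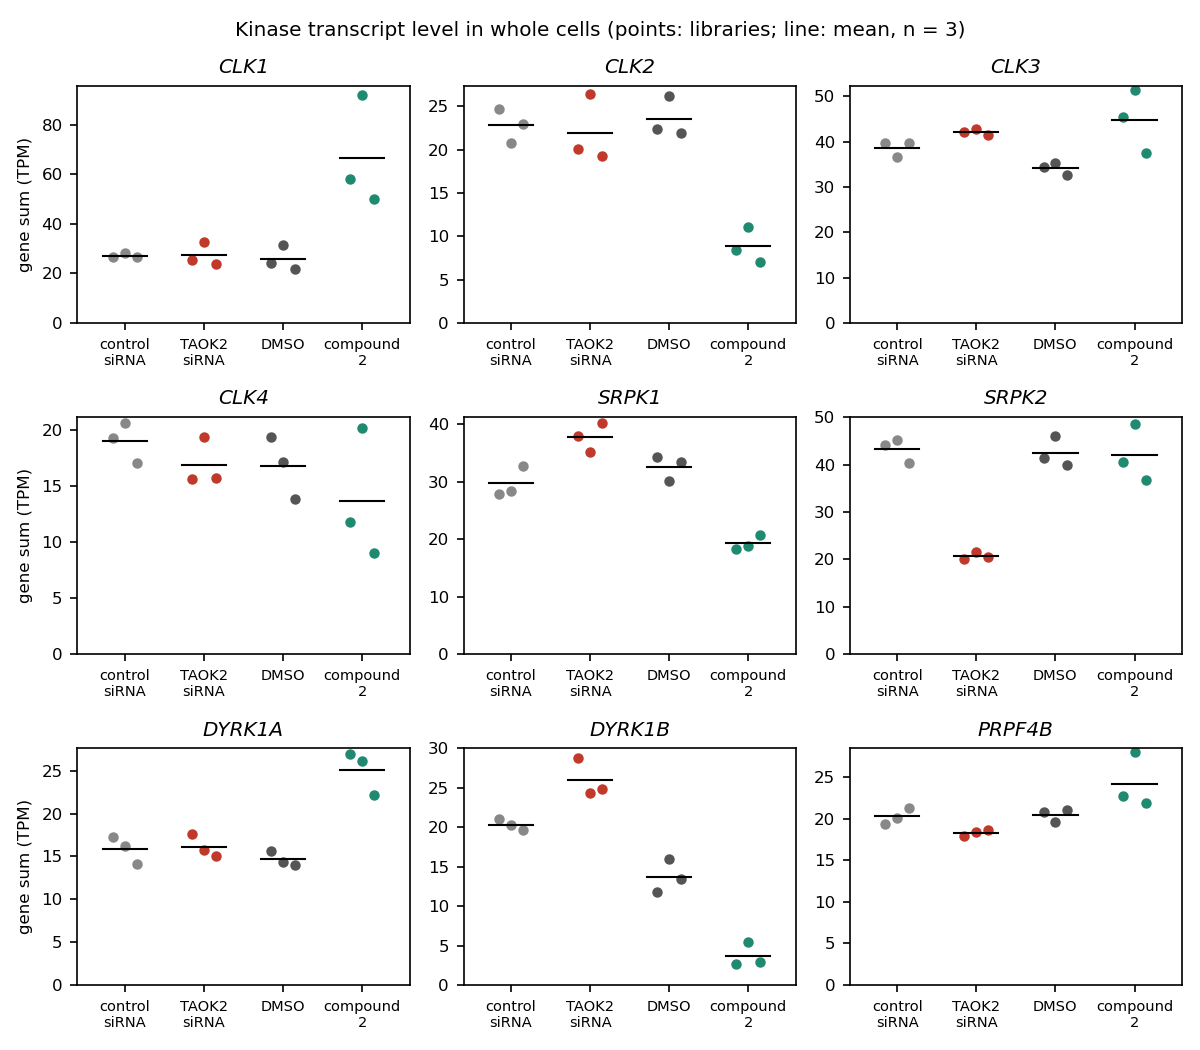
Summed TPM of each of the 9 kinase genes (vertical axis, from 0) in the 12 whole-cell libraries by treatment; each point is a library and each line the mean of 3. SRPK2 is low in the 3 TAOK2 siRNA libraries, and CLK1 and DYRK1A are high and CLK2, SRPK1 and DYRK1B low in the 3 compound 2 libraries.

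Knockdown of TAOK2 in whole cells was followed by less SRPK2 and more SRPK1, and by no call in the other 7 kinases. SRPK2, which phosphorylates SR proteins in the cytoplasm, was at 44.3, 45.3 and 40.3 TPM with control siRNA against 20.2, 21.5 and 20.6 TPM with TAOK2 siRNA. The groups lay far apart, and the DMSO libraries (41.4, 46.1 and 40.0 TPM) sat with control siRNA. SRPK2 fell 2.04-fold (log2 change -1.03 ± 0.10, SE; limma, adjusted p = 3.85e-05). SRPK1, its paralog, was at 27.9, 28.5 and 32.8 TPM with control siRNA against 37.9, 35.1 and 40.2 TPM with TAOK2 siRNA, also without overlap, and rose 1.26-fold (log2 change 0.34 ± 0.09; limma, adjusted p = 0.0169). Thus 2 of 9 kinases passed in limma, where 22.2% of all genes did (7.79% higher and 14.4% lower). Only SRPK2 was left when TAOK2 siRNA replicate 3, control replicate 1 or control replicate 2 was omitted (adjusted p of SRPK1 0.0716, 0.0730 and 0.0691).

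The other kinases moved by little in relation to their spread. DYRK1B, which acts in quiescent cells, was at 21.1, 20.2 and 19.6 TPM with control siRNA against 28.7, 24.4 and 24.8 TPM with TAOK2 siRNA; all 3 knockdown libraries were higher, but the log2 difference of 0.34 ± 0.18 had an adjusted p of 0.214 in limma. PRPF4B, a spliceosome-associated kinase, was at 19.4, 20.1 and 21.4 against 17.9, 18.4 and 18.7 TPM, again without overlap and not called (log2 difference -0.14 ± 0.09; limma, adjusted p = 0.303). CLK1 was at 26.5, 28.4 and 26.8 against 25.5, 32.9 and 23.9 TPM, and the 95% interval of its log2 difference ran from -0.44 to 0.44. CLK3 was at 39.8, 36.6 and 39.6 against 42.0, 42.8 and 41.5 TPM, without overlap and with a log2 difference of 0.12 that did not pass. CLK2, CLK4 and DYRK1A had overlapping groups and log2 differences between -0.16 and 0.02.

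Within SRPK2, 3 coding transcripts carried the fall. The most abundant, SRPK2-202, was at 20.7, 20.5 and 23.4 TPM with control siRNA against 10.5, 10.9 and 10.7 TPM with TAOK2 siRNA (log2 change -0.98 ± 0.12; limma, adjusted p = 0.00178). SRPK2-201 was at 4.02, 4.37 and 3.82 against 1.83, 1.37 and 1.20 TPM (adjusted p = 0.0161), although DMSO libraries, at 1.61, 0.941 and 2.48 TPM, lay at the knockdown level for this transcript. SRPK2-212 was at 6.58, 6.19 and 3.27 against 2.63, 2.65 and 1.90 TPM (adjusted p = 0.042). These were the 3 of 45 kinase transcripts that passed, against 4.93% of all transcripts (1.49% higher and 3.45% lower). SRPK2-202 passed in each of the 6 omissions of 1 library. SRPK2-201 did not pass without TAOK2 siRNA replicate 2 or 3 or control replicate 1 or 2 (adjusted p from 0.0535 to 0.0647). SRPK2-212 did not pass without any 1 of the TAOK2 siRNA libraries or control replicate 1 or 2 (adjusted p from 0.0816 to 0.146), nor without the filter on low values (0.115) or the trend and robust settings (0.0528).

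The balance of transcript classes gave no call after knockdown. The log2 ratio of retained-intron to coding TPM passed for 0 of 6 kinases in limma (2 at an unadjusted p under 0.05; 0.533% of all genes passed), and the ratio of decay-class to coding TPM for 0 of 6 (3 unadjusted; 0% of all genes). CLK1 came nearest among the CLKs: its retained-intron share was 39.1%, 41.6% and 46.9% with control siRNA against 50.0%, 52.2% and 54.8% with TAOK2 siRNA. The groups did not overlap, but the log2 ratio difference of 0.62 ± 0.16 had an adjusted p of 0.149, and the DMSO libraries reached 53.0%. For SRPK2 the difference was 1.02 ± 0.23 (adjusted p = 0.0788) at a retained-intron share of 0.796% to 3.125%.

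Compound 2 was followed by changes in 7 of the 9 kinases, where 63.8% of all genes passed in limma (12% higher and 51.8% lower, with a median log2 difference of -0.31). CLK1, DYRK1A, CLK3 and PRPF4B rose, DYRK1B, CLK2 and SRPK1 fell, and SRPK2 and CLK4 did not pass. When each library was centred on its median gene, the split was 5 higher and 2 lower instead of 4 and 3, because SRPK2 then rose (log2 difference 0.49; adjusted p = 0.000109) and SRPK1 no longer passed (-0.22; adjusted p = 0.0711). Over all genes, centring turned the split into 43.2% higher and 24.3% lower.

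CLK1 was at 24.0, 31.4 and 21.9 TPM under DMSO and at 58.0, 92.1 and 50.2 TPM under compound 2. Every treated library lay above every vehicle library, replicate 2 furthest, and the rise was 2.48-fold (log2 change 1.31 ± 0.20; limma, adjusted p = 0.000127). CLK2 moved the other way, from 22.4, 26.2 and 21.9 TPM to 8.45, 11.1 and 7.04 TPM, a fall of 2.51-fold (-1.33 ± 0.15; adjusted p = 8.18e-06). CLK3 was at 34.4, 35.4 and 32.7 TPM and then at 45.3, 51.3 and 37.4 TPM, a smaller rise without overlap (0.37 ± 0.10; adjusted p = 0.0047). CLK4, closest to CLK1 in exon 4, was at 19.3, 17.1 and 13.9 against 11.8, 20.2 and 9.06 TPM. Its compound 2 replicate 2 lay above all vehicle libraries and the other two below them, so no change was called (-0.34 ± 0.22; adjusted p = 0.209), whereas without that library CLK4 was lower by a log2 difference of -0.64 (adjusted p = 0.00297).

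Among the other kinases, DYRK1A and DYRK1B went in opposite directions. DYRK1A, a nuclear kinase that also resides in speckles, was at 15.7, 14.3 and 14.0 TPM under DMSO and 27.0, 26.2 and 22.1 TPM under compound 2, and rose 1.66-fold (0.73 ± 0.10; adjusted p = 4.13e-05). DYRK1B was at 11.7, 15.9 and 13.4 against 2.69, 5.50 and 2.88 TPM, a fall of 3.22-fold (-1.69 ± 0.18; adjusted p = 5.23e-06). Neither pair of groups overlapped.

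SRPK1 was at 34.3, 30.1 and 33.5 TPM under DMSO and 18.3, 18.9 and 20.8 TPM under compound 2, and fell 1.66-fold (-0.73 ± 0.09; adjusted p = 1.23e-05). SRPK2 was at 41.4, 46.1 and 40.0 against 40.6, 48.7 and 36.8 TPM, fully overlapping, and the 95% interval of its log2 difference ran from -0.23 to 0.19. PRPF4B was at 20.8, 19.6 and 21.1 against 22.8, 28.0 and 22.0 TPM. All 3 treated libraries were higher, by log2 differences of 0.13, 0.50 and 0.06 within batches A, B and C (0.23 ± 0.09; adjusted p = 0.0415). The PRPF4B call was lost without compound 2 replicate 2 (0.12; adjusted p = 0.133) or without any 1 of the DMSO libraries (adjusted p from 0.0601 to 0.119), and after median centring it was 0.74 (adjusted p = 2.68e-06).

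**Figure D2:**
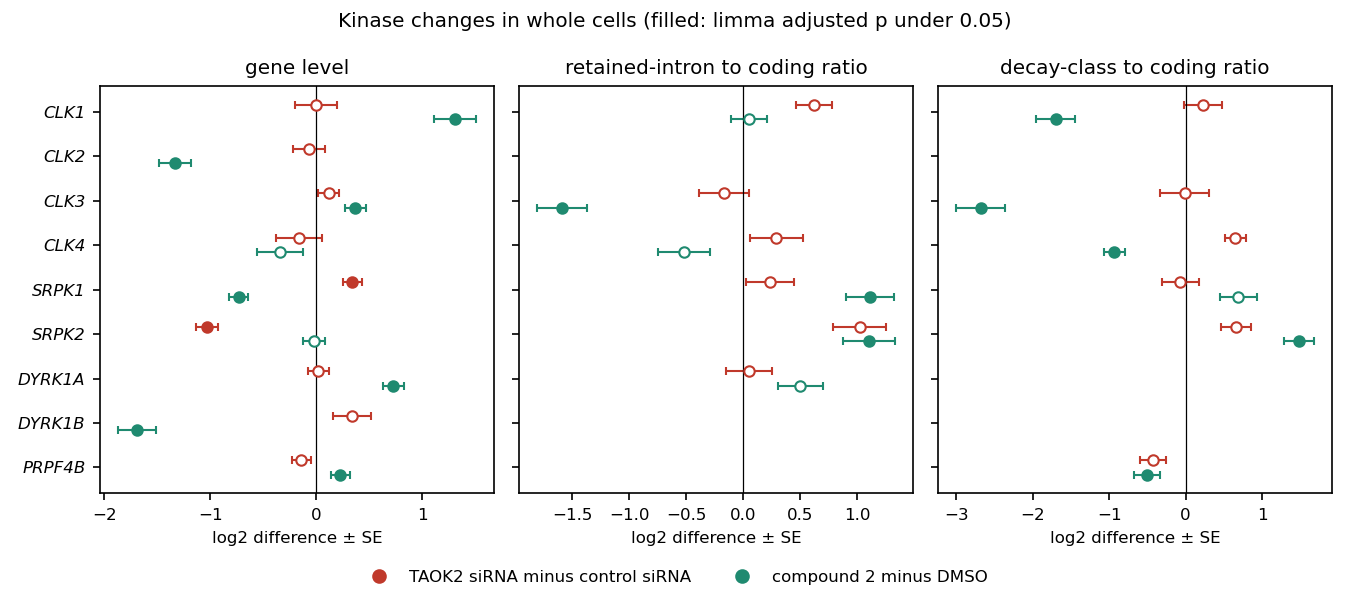
Log2 differences (horizontal axes, points with SE from limma, n = 3 per group) for TAOK2 siRNA against control siRNA and compound 2 against DMSO, in panels for gene level, retained-intron to coding ratio and decay-class to coding ratio; filled points passed an adjusted p of 0.05 and a kinase without a point was not tested. The filled knockdown points are SRPK2 and SRPK1 at gene level, and the filled compound 2 points number 7 at gene level, 3 for retained-intron and 5 for decay-class ratios.

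The class balance inside these genes shifted under compound 2 as well. Of the 6 kinases tested, the retained-intron to coding ratio rose in SRPK1 and SRPK2 and fell in CLK3 (limma; 48.1% of all genes passed, 22.7% higher and 25.5% lower). The decay-class to coding ratio rose in SRPK2 and fell in CLK1, CLK3, CLK4 and PRPF4B (5 of 6; 27.9% of all genes passed, 18.1% higher and 9.76% lower).

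CLK3 showed the widest shift of the 2 ratios. Its retained-intron share was 15.45%, 11.7% and 16.2% under DMSO and 5.43%, 8.15% and 4.06% under compound 2 (log2 ratio change -1.59 ± 0.22; adjusted p = 5.69e-05). Its decay-class share went from 15.3%, 16.0% and 14.3% to 1.07%, 2.965% and 3.25% (-2.68 ± 0.32; adjusted p = 8.54e-05). Coding transcripts accordingly made up 68.5%, 71.6% and 68.3% of CLK3 under DMSO and 93.2%, 88.7% and 92.1% under compound 2, with no overlap in any of the 3 classes. CLK3-225, an exon 4-skipping decay transcript, was at 4.83, 5.31 and 3.58 TPM and then at 0.235, 1.09 and 0.990 TPM (-2.06 ± 0.32; adjusted p = 0.000243). The other way went the coding CLK3-223, which rose from 6.27, 7.03 and 5.66 to 14.2, 10.7 and 9.205 TPM (0.78 ± 0.16; adjusted p = 0.00159). It is a short model of 4 exons and 481 coding bases. CLK3-223 skips exons 4 and 5 and ends 5232 bases before the end of the reference transcript. The coding share of CLK3 includes it.

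In CLK1 the rise was shared by coding and retained-intron transcripts. The intron-keeping CLK1-210, whose splice sites are printed above, was at 9.84, 10.4 and 7.11 TPM under DMSO and 22.3, 39.0 and 20.5 TPM under compound 2 (1.49 ± 0.23; adjusted p = 0.000267). The coding CLK1-201 was at 6.17, 9.36 and 6.31 against 13.4, 25.2 and 14.2 TPM (1.18 ± 0.25; adjusted p = 0.00205). The exon 4-skipping CLK1-204 did not pass, at 2.90, 5.10 and 2.56 against 1.96, 4.89 and 1.37 TPM. So the retained-intron share stayed between 45.0% and 53.0% in all 6 libraries (log2 ratio difference 0.05 ± 0.16; adjusted p = 0.825), while the decay-class share went from 12.1%, 16.3% and 11.7% to 3.38%, 5.305% and 2.73% (-1.70 ± 0.25; adjusted p = 0.000347). CLK1-213, a 2-exon transcript of the 5′ end that stops 7956 bases before the end of the gene's reference transcript, was at 0.0987, 0 and 0.446 TPM under DMSO and 7.77, 5.85 and 5.14 TPM under compound 2 (3.34 ± 0.27 on the log2 scale with 0.5 TPM added; adjusted p = 1.69e-06).

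Counting the CLK transcripts by what they do at exon 4 gives a description, without a test. The transcripts CLK1-207, CLK2-207 and CLK4-202, which keep intron 4, were not among those given an outcome. CLK2 therefore has no intron-keeping share here. CLK1 transcripts that skip it were 15.0%, 19.7% and 17.2% of the CLK1 TPM with a defined exon 4 outcome under DMSO, and 5.55%, 7.42% and 4.10% under compound 2. Those that keep an intron beside it went from 48.2%, 40.1% and 39.6% to 54.9%, 54.3% and 53.9%. CLK2 skipping went from 22.6%, 19.1% and 16.8% to 0%, 0% and 5.68%. In CLK3 the intron-keeping share went from 12.8%, 8.5% and 11.4% to 3.57%, 7.43% and 3.40%, and the skipping share from 37.0%, 40.6% and 34.3% to 33.4%, 25.2% and 28.2%. CLK4 skipping overlapped between the groups (5.97%, 13.7% and 14.8% against 13.3%, 9.28% and 1.43%), while its intron-keeping share was lower without overlap (29.1%, 25.3% and 31.8% against 13.0%, 23.2% and 12%). Each of these shares rests on how reads were divided between overlapping transcripts.

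**Figure D3:**
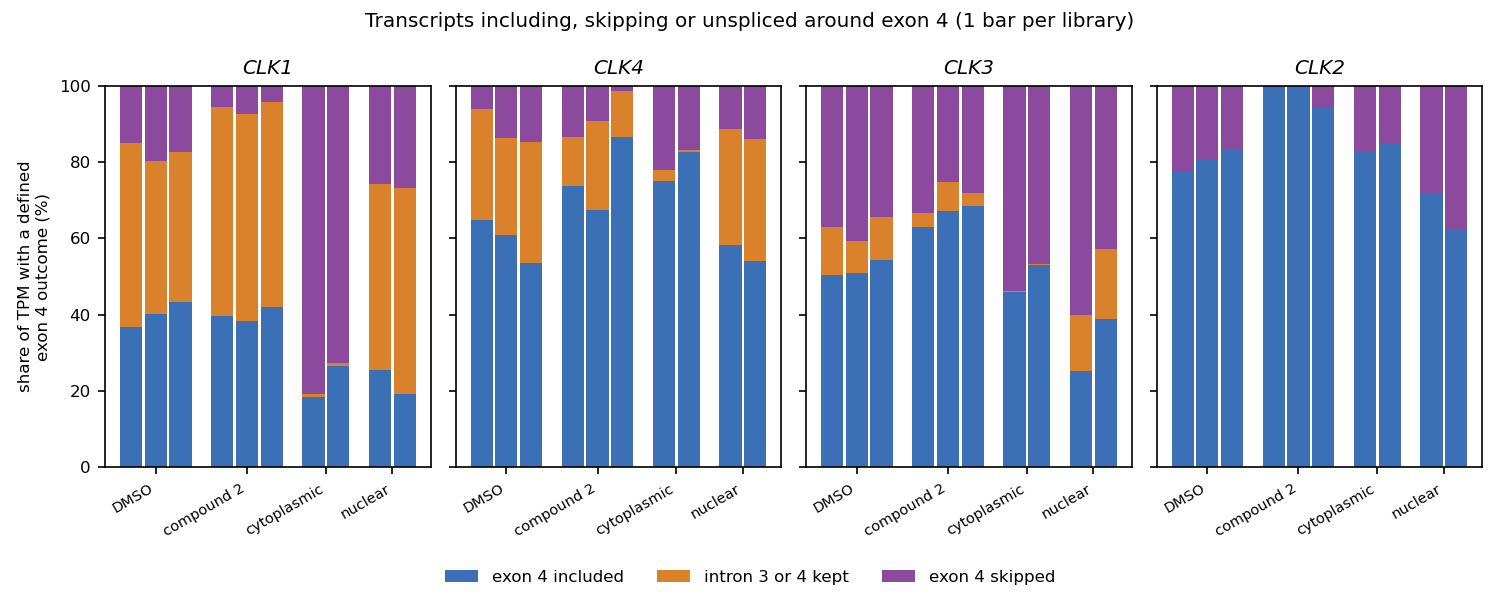
Share (percent) of the TPM in transcripts whose exon 4 outcome is defined, split into exon 4 included, intron 3 or 4 kept and exon 4 skipped, with 1 bar per library for DMSO, compound 2 and the control siRNA cytoplasmic and nuclear fractions. The transcripts CLK1-207, CLK2-207 and CLK4-202, which keep intron 4, are not counted. Skipping of CLK1 is lower in all compound 2 libraries than under DMSO. The counted CLK1 transcripts keeping an intron are below 1% in cytoplasm and at 48.9% and 54.1% in nuclei.

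CLK4 kept a retained-intron share of 32.0% to 47.4% over both groups (ratio difference -0.52; adjusted p = 0.0826), and its decay-class share went from 16.8%, 19.3% and 17.9% to 9.58%, 10.6% and 12.1% (-0.93 ± 0.14; adjusted p = 0.000411). In CLK2, which has no transcript of either class, the coding share went from 53.5%, 55.8% and 57.1% to 80.7%, 68.2% and 73.5%. The exon 4-skipping CLK2-205 was at 3.89, 3.87 and 2.83 TPM under DMSO and at 0, 0 and 0.336 TPM under compound 2 (-2.75 ± 0.25; adjusted p = 4.13e-06). The coding CLK2-203 fell less, from 9.24, 10.9 and 9.52 to 5.79, 4.37 and 4.42 TPM (-0.96 ± 0.15; adjusted p = 0.000296).

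The SRPK2 gene level passed under compound 2 only after median centring (0.49), and its transcripts shifted on the scale as deposited. The coding SRPK2-202 fell from 26.3, 30.5 and 22.2 to 16.3, 19.7 and 15.6 TPM (-0.60 ± 0.12; adjusted p = 0.00193; not past the test after median centring). SRPK2-201 rose from 1.61, 0.941 and 2.48 to 3.65, 4.60 and 3.42 TPM (1.06 ± 0.24; adjusted p = 0.00333), and the decay-class SRPK2-206 from 0.475, 0.796 and 0.391 to 2.65, 2.70 and 2.68 TPM (1.61 ± 0.23; adjusted p = 0.000139). The decay-class share of SRPK2 accordingly went from 3.15%, 4.17% and 3.615% to 10.8%, 9.16% and 12.5% (log2 ratio change 1.48 ± 0.20; adjusted p = 0.000205). The retained-intron ratio of SRPK2 rose by 1.10 ± 0.23 (limma, adjusted p = 0.00159). That class was near or below the added 0.5 TPM under DMSO, so the size of this rise is uncertain. Its transcripts, SRPK2-207 and SRPK2-209, keep no whole intron of the reference transcript. In SRPK1 the fall lay in the coding SRPK1-204, at 24.9, 23.7 and 27.0 against 10.5, 12.04 and 12.5 TPM (-1.08 ± 0.10; adjusted p = 4.29e-06), while its retained-intron share went from 7.72%, 9.35% and 6.73% to 17.6%, 13.0% and 16.4% (1.11 ± 0.21; adjusted p = 0.000814).

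Coding transcripts carried both DYRK changes. DYRK1B-201 was at 5.31, 6.38 and 5.67 TPM under DMSO and 0.561, 2.04 and 0.808 TPM under compound 2 (-2.04 ± 0.25; adjusted p = 4.53e-05). DYRK1A-215 was at 4.17, 3.28 and 3.28 against 8.29, 7.50 and 6.73 TPM (0.98 ± 0.20; adjusted p = 0.0016). The retained-intron share of DYRK1A was 2.76% to 3.90% under DMSO and 5.04% to 8.22% under compound 2, without overlap and without a call (0.50 ± 0.20; adjusted p = 0.054), and it was called without compound 2 replicate 2 (0.69; adjusted p = 0.00917). In PRPF4B, PRPF4B-205 fell from 14.2, 10.8 and 12.2 to 8.78, 9.95 and 7.29 TPM (-0.50 ± 0.13; adjusted p = 0.00868; -0.19 and not past the test after centring), and the 3-exon processed transcript PRPF4B-207 rose from 0, 0.387 and 0 to 3.88, 3.80 and 5.52 TPM (3.00 ± 0.43; adjusted p = 0.000134). Its decay-class share went from 76.5%, 66.3% and 70.7% to 55.8%, 51.4% and 48.1% (log2 ratio change -0.50 ± 0.17; adjusted p = 0.0465), a call lost without DMSO replicate 1 or 3 or any 1 compound 2 library. In all, 32 of 45 kinase transcripts passed, 17 higher and 15 lower (19 and 12 after centring), against 51.3% of all transcripts, 12.2% higher and 39.1% lower.

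The knockdown and compound 2 effects were compared directly, as the difference of the differences. It passed for 7 of the 9 kinases in limma (54.8% of all genes). The compound 2 effect was the more positive for CLK1 (-1.31 ± 0.29, knockdown minus compound 2; adjusted p = 0.00219), DYRK1A (-0.71; adjusted p = 0.00119) and PRPF4B (-0.36; adjusted p = 0.0277), and also for SRPK2, which fell after knockdown (-1.0; adjusted p = 6.67e-05). It was the more negative for DYRK1B (2.03; adjusted p = 4.09e-05), CLK2 (1.26; adjusted p = 0.000357) and SRPK1 (1.06; adjusted p = 1.89e-05). SRPK1 passed in both comparisons with opposite signs. The PRPF4B call was lost without DMSO replicate 2, TAOK2 siRNA replicate 1 or control replicate 3. CLK3 (-0.25; adjusted p = 0.14, called after centring at -0.71) and CLK4 (0.17; adjusted p = 0.669) did not pass. The decay-class ratio differed for CLK1 (1.93), CLK3 (2.66) and CLK4 (1.58), with adjusted p of 0.00303, 0.00189 and 0.000289 (3 of 6; 17.4% of all genes). The retained-intron ratio differed for CLK3 (1.42; adjusted p = 0.00328) and SRPK1 (-0.88; adjusted p = 0.0364), 2 of 6 against 33.7% of all genes. The SRPK1 call was lost when any 1 of 8 libraries was omitted: compound 2 replicate 1 or 3, TAOK2 siRNA replicate 2 or 3, control replicate 1 or 3, or DMSO replicate 1 or 3 (adjusted p between 0.0589 and 0.0930).

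Between compartments of control siRNA cells, CLK1, CLK2, CLK4 and PRPF4B RNA was higher in the nuclear than in the cytoplasmic fraction, and the other 5 kinases did not pass. CLK2 was at 6.93 and 6.69 TPM in cytoplasm and 28.6 and 25.0 TPM in nuclei (3.55-fold; log2 difference 1.83 ± 0.17, n = 2; limma, adjusted p = 7.21e-05). CLK4 was at 7.10 and 10.8 against 26.1 and 29.8 TPM (2.96-fold; adjusted p = 0.00286), and CLK1 at 18.7 and 30.3 against 61.4 and 68.6 TPM (2.65-fold; adjusted p = 0.0156). PRPF4B was at 15.3 and 19.6 against 37.3 and 49.3 TPM (2.40-fold; adjusted p = 0.00736). None of these 4 pairs of groups overlapped. They are 4 of 9 kinases, where 48.7% of all genes passed, 29.8% higher and 18.9% lower in nuclei, with a median log2 difference of 0.21.

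CLK1 was no longer called after median centring (1.02; adjusted p = 0.0733), and CLK1 and PRPF4B both missed the threshold without cytoplasmic replicate 1 (0.103 and 0.0518) or nuclear replicate 2 (0.0732 and 0.0537), which left 2 of 9. With the batch as a block SRPK1 passed too (adjusted p = 0.0411 against 0.109), making 5. SRPK1 was at 26.2 and 28.6 TPM in cytoplasm and 37.6 and 43.5 TPM in nuclei. SRPK2 (27.5 and 34.5 against 30.7 and 39.0 TPM) and DYRK1A (12.8 and 11.9 against 15.7 and 15.1 TPM) lay close in both, and CLK3 was at 27.8 and 28.0 against 41.7 and 32.9 TPM. DYRK1B was higher in batch 1 than in batch 2 in either fraction (9.04 and 3.23 TPM in cytoplasm, 8.37 and 5.21 TPM in nuclei). The centred differences of SRPK2, DYRK1A and DYRK1B were negative (-0.22, -0.08 and -0.16) and did not pass.

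The composition of the genes separated the compartments further. The retained-intron to coding ratio was higher in nuclei for CLK1, CLK3, CLK4, SRPK1 and DYRK1A and lower for PRPF4B, and DYRK1B did not pass: 6 of 7, where 74.2% of all genes passed, 73.4% higher and 0.788% lower. Retained-intron transcripts as a class held 8.86% to 9.75% of all TPM in control nuclei and 3.59% to 3.92% in cytoplasm.

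In CLK1 retained-intron transcripts were 2.89% and 0.743% of the gene in cytoplasm and 57.9% and 58.7% in nuclei (log2 ratio difference 4.34 ± 0.53; adjusted p = 6.63e-05; the median over all genes was 2.56). CLK1-210 was at 0.125 and 0.174 TPM in cytoplasm and 14.9 and 19.8 TPM in nuclei (4.77 ± 0.70; adjusted p = 0.000837). In CLK4 the share was 3.545% and 2.05% against 32.5% and 35.4% (3.00 ± 0.41; adjusted p = 0.000134), and CLK4-203, which keeps the same 2 introns, was at 0.0365 and 0.0464 against 5.50 and 6.44 TPM (3.57 ± 0.44; adjusted p = 0.000333). CLK3 followed with 2.78% and 0.946% against 24.0% and 20.3% (3.27 ± 0.38; adjusted p = 4.56e-05). Each of these 3 genes had its retained-intron share below 4% in both cytoplasmic libraries and above 20% in both nuclear ones. In CLK2 the place of this class was taken by processed transcripts: CLK2-207, which keeps introns 4, 10 and 11, was at 0.0470 and 0.04595 TPM in cytoplasm and 5.99 and 4.51 TPM in nuclei (3.38 ± 0.25; adjusted p = 3.55e-05).

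**Figure D4:**
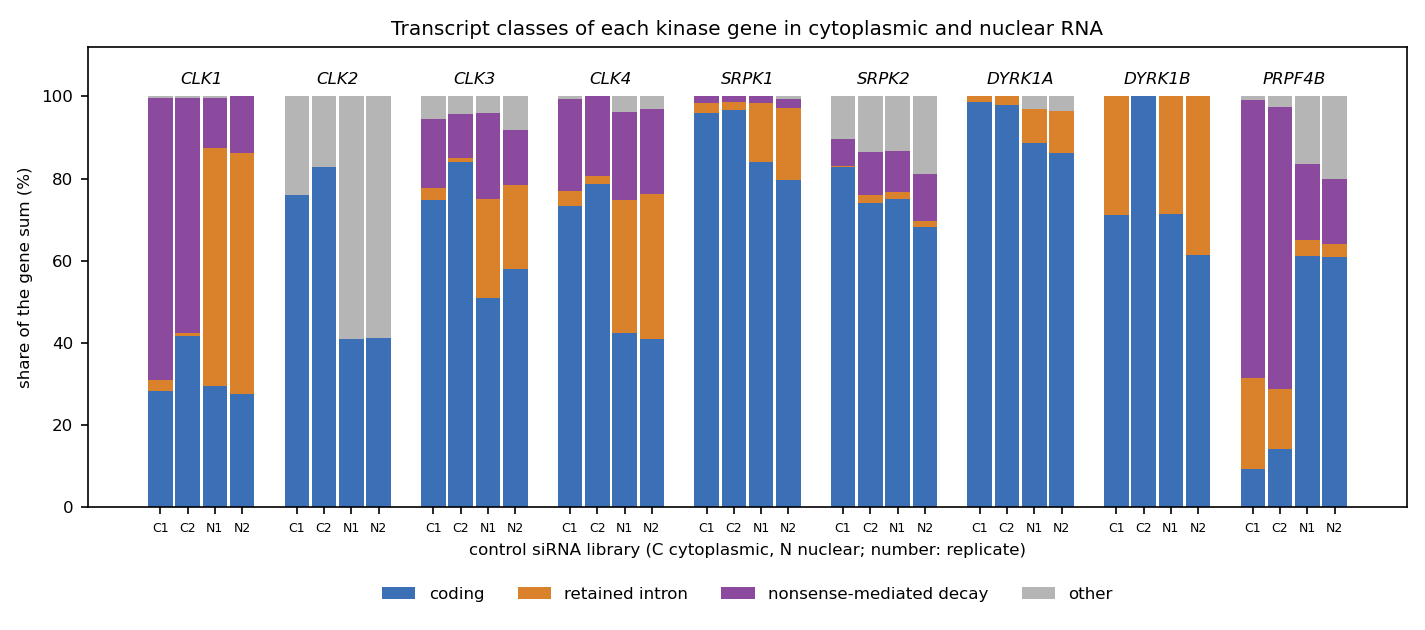
Share (percent) of each gene's TPM in coding, retained-intron, nonsense-mediated decay and other transcripts in the 2 cytoplasmic (C1, C2) and 2 nuclear (N1, N2) control siRNA libraries. Retained-intron transcripts fill more of the nuclear than of the cytoplasmic bars of CLK1, CLK3 and CLK4, and PRPF4B is mostly coding in nuclei and mostly of the decay class in cytoplasm.

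Outside the CLKs the ratios were smaller or turned. SRPK1 had a retained-intron share of 2.49% and 1.94% in cytoplasm and 14.3% and 17.4% in nuclei (2.32 ± 0.72; adjusted p = 0.0152), a call lost without cytoplasmic replicate 2 (0.0648) or nuclear replicate 2 (0.0708). DYRK1A had 1.41% and 2.205% against 8.42% and 10.1% (1.27 ± 0.29; adjusted p = 0.00326). PRPF4B went the other way, with 22.0% and 14.6% in cytoplasm and 3.945% and 3.075% in nuclei (-4.26 ± 0.53; adjusted p = 7.71e-05). The only PRPF4B transcript of that class, PRPF4B-203, keeps no whole intron of PRPF4B-201 and ends 3076 bases downstream of it. The decay-class PRPF4B-205 and PRPF4B-206 end 3075 and 3076 bases downstream. The PRPF4B ratio is thus no measure of intron keeping. The coding transcript PRPF4B-201 was at 1.45 and 2.79 TPM in cytoplasm and 22.8 and 30.1 TPM in nuclei (3.40 ± 0.51; adjusted p = 0.000948). PRPF4B-205, of the same coding length and with the longer 3′ end, was at 8.11 and 11.2 against 4.14 and 6.23 TPM and did not pass (-0.84 ± 0.36; adjusted p = 0.091).

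The decay-class to coding ratio was lower in nuclei for 2 of 6 kinases, where 27.3% of all genes passed, 23.5% higher and 3.84% lower. PRPF4B had 67.6% and 68.5% of its TPM in this class in cytoplasm and 18.4% and 15.8% in nuclei (-4.05 ± 0.37; adjusted p = 0.000228). CLK1 had 68.5% and 57.3% against 12.35% and 13.8% (-1.91 ± 0.51; adjusted p = 0.025), a call lost without cytoplasmic replicate 1 (0.148), nuclear replicate 1 (0.111) or nuclear replicate 2 (0.0839). Most of the cytoplasmic CLK1 RNA was thus CLK1-204, a decay-class transcript without exon 4. It was at 12.6 and 17.3 TPM in cytoplasm and 7.59 and 9.31 TPM in nuclei, a difference in level that did not pass (-0.78). Of the CLK1 TPM with a defined exon 4 outcome, transcripts skipping it made up 80.8% and 72.8% in cytoplasm and 25.6% and 26.8% in nuclei. Over all kinases, 17 of 42 transcripts passed between nuclei and cytoplasm, 15 higher and 2 lower in nuclei (12 and 7 after centring), where 44.6% of all transcripts did, 30.9% higher and 13.7% lower. The 2 that were lower, CLK3-201 (-0.77; adjusted p = 0.0474) and SRPK1-205 (-0.95; adjusted p = 0.0259), are coding, and their calls were lost in 4 and 3 of the 4 fits that left out a library.

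**Figure D5:**
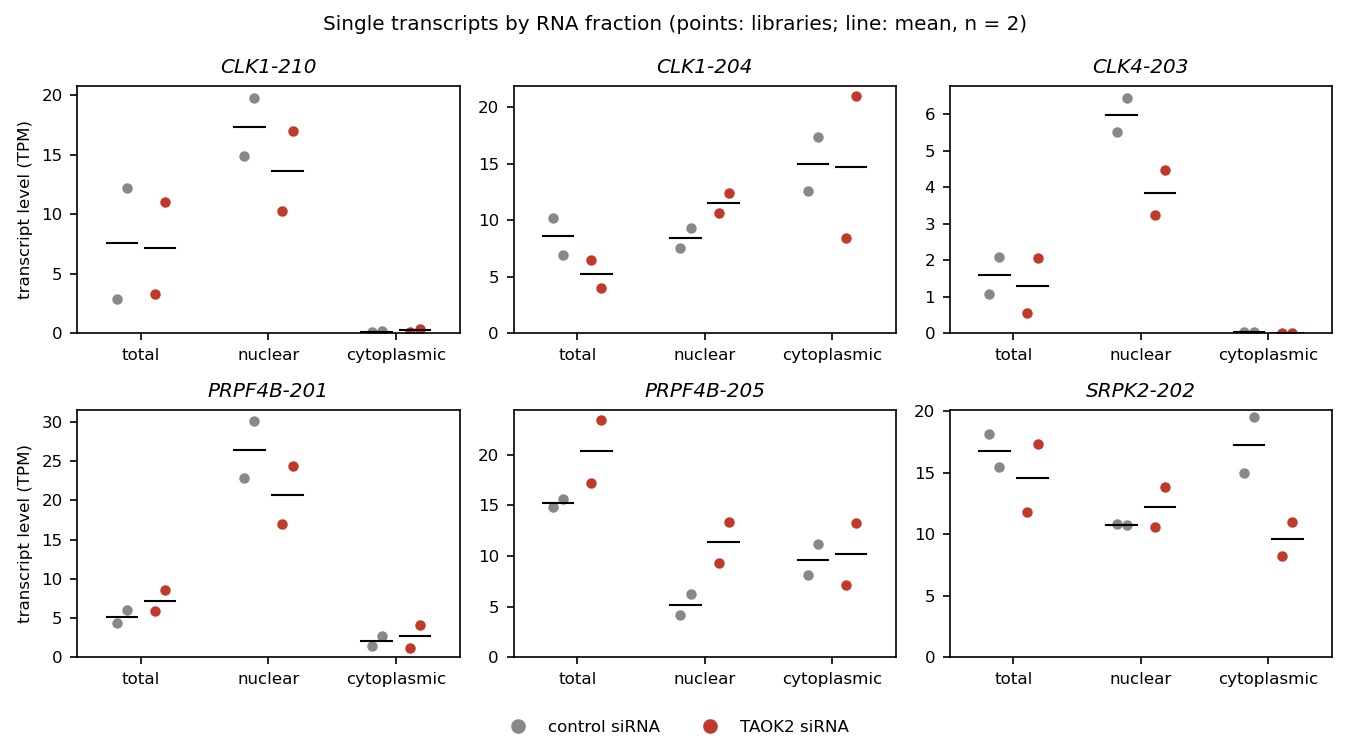
TPM (vertical axes, linear from 0) of 6 single transcripts in total, nuclear and cytoplasmic RNA with control or TAOK2 siRNA; each point is a library and each line the mean of 2. CLK1-210, CLK4-203 and PRPF4B-201 are higher in all nuclear than in all cytoplasmic libraries of either treatment, while CLK1-204 and SRPK2-202 are not.

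Knockdown of TAOK2 within the fractions gave no call for any kinase. At the gene level 0 of 9 passed in limma in total, nuclear and cytoplasmic RNA (0, 0 and 1 at an unadjusted p under 0.05; 0%, 0.0146% and 0% of all genes passed). SRPK2 was at 37.6 and 36.0 against 26.7 and 32.2 TPM in total RNA, at 30.7 and 39.0 against 24.6 and 31.5 TPM in nuclei, and at 27.5 and 34.5 against 14.3 and 24.6 TPM in cytoplasm. It was lower in both batches of all 3, with log2 differences of -0.32 ± 0.27, -0.30 ± 0.27 and -0.69 ± 0.27, and adjusted p of 1, 0.86 and 0.631. SRPK1 differed by 0.29, 0.21 and 0.06. The difference of the knockdown effect between nuclei and cytoplasm passed for no kinase (0 of 9 in limma, 0 unadjusted; 0% of all genes).

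The class ratios and transcripts gave no call either: 0 of 7 retained-intron ratios passed in limma in total, nuclear and cytoplasmic RNA (0 unadjusted in each; 0%, 0% and 0.0404% of all genes), 0 of 6 decay-class ratios (0, 1 and 0 unadjusted; 0% of all genes in each) and 0 of 42 transcripts (0, 2 and 2 unadjusted; 0%, 0.00454% and 0% of all transcripts). The retained-intron share of nuclear CLK1 was 57.9% and 58.7% with control siRNA against 44.4% and 52.2% with TAOK2 siRNA, that of CLK4 32.5% and 35.4% against 31.3% and 32.4%, and that of DYRK1A 8.42% and 10.1% against 5.675% and 6.915%. These 3 of the 7 tested lay lower without overlap, CLK4 only by 32.4% against 32.5%. The share of all genes that separated in this way was not counted, so nothing particular to these kinases can be read from it. Over all genes the median log2 ratio difference in nuclei was -0.36. The retained-intron class held 7.35% to 8.01% of all TPM there after knockdown. The groups overlapped in the remaining 4: CLK3 (24.0% and 20.3% against 19.2% and 20.9%), SRPK1 (14.3% and 17.4% against 9.18% and 16.4%), PRPF4B (3.945% and 3.075% against 3.34% and 3.23%) and DYRK1B, which was higher after knockdown in both batches (28.6% and 38.5% against 30.6% and 40.4%). PRPF4B-205 was at 4.14 and 6.23 TPM in control nuclei and 9.30 and 13.4 TPM in knockdown nuclei, and the decay-class share of nuclear PRPF4B at 18.4% and 15.8% against 35.1% and 32.8%. That ratio difference, 1.11 ± 0.37, is the call at an unadjusted p under 0.05 (adjusted p = 1).

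The genes around these kinases were followed through lists of their substrates and partners, with counts before and after median centring since centring moves all compound 2 and nuclear differences upward or downward together. Of 14 SR proteins, 0 were higher and 3 lower after knockdown in whole cells (SRSF4 -0.54, SRSF1 -0.28 and SRSF3 -0.21; 0 and 1 after centring), with a median log2 difference of -0.12 beside -0.05 over all genes, of which 7.79% were higher and 14.4% lower (9.89% and 10.6% after centring). Under compound 2, 5 were higher and 5 lower (10 and 2 after centring), among them SRSF5 (0.83) and TRA2B (0.85), which rose, and SRSF3 (-1.46), which fell, on both scales. The median was -0.15 beside -0.31 over all genes, of which 12% were higher and 51.8% lower (43.2% and 24.3% after centring). Between control nuclei and cytoplasm, 8 were higher and 2 lower (5 and 4 after centring; 29.8% and 18.9% of all genes, and 20.2% and 29.8% after centring), SRSF11 (3.16) and SRSF6 (2.55) leading. TNPO3, the import receptor that carries phosphorylated SR proteins into the nucleus, fell after knockdown (-0.82; adjusted p = 4.04e-05), and its lower level under compound 2 (-0.55) did not pass after centring (-0.04). Of the 6 chaperones and import factors listed, 0 were higher and 2 lower after knockdown (0 and 2 after centring), and 4 were higher and 1 lower under compound 2 (5 and 0). HSP90AA1, a chaperone, fell after knockdown (-0.37) and rose under compound 2 (0.43).

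A further list held genes reported to phosphorylate SR proteins or related to the kinases described here. Of its 11 genes tested, 0 were higher and 2 lower after knockdown (1 and 2 after centring), TOP1 (-1.0) and NEK2 (-0.35). Under compound 2, 1 was higher and 6 lower, and 5 and 2 after centring, beside the same shares of all genes as above. DYRK3 (-1.34), which dissolves speckles in mitosis, and TOP1 (-0.97) fell on both scales. Another list held phosphatases acting on SR proteins and spliceosomes together with their targeting subunits. Of its 8 genes, 0 were higher and 1 lower after knockdown on both scales (PPP1R8, -0.85). Under compound 2, 3 were higher and 2 lower (7 and 1 after centring), PPP1R10 falling by 2.15 on the log2 scale. No gene of the 4 lists passed in limma in total, nuclear or cytoplasmic RNA after knockdown.

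For each kinase the gene with the most similar pattern over the 10 group means was sought among 9349 genes, by Pearson correlation after centring each experiment. For CLK1 it was AKAP17A (0.988), for CLK2 CCDC130 (0.996), for CLK3 DICER1 (0.959), for CLK4 APBB3 (0.998), for SRPK1 MYO9B (0.976), for SRPK2 MTSS1L (0.958), for DYRK1A BRAF (0.980), for DYRK1B RAP1GAP2 (0.987) and for PRPF4B ASXL1 (0.993). These are descriptions over 10 points that share libraries' depth and, for nuclei, the mitochondrial share.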

How the data were processed

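The authors deposited TPM values per transcript, 1 table for 12 whole-cell libraries and 1 for 12 fractionation libraries, which the submitters' processing notes trace to kallisto and GRCh38.p14. No version or index annotation is named there. Each library sums to 1000000 TPM, so depth is unknown, no counting interval was given and the 2 tables were tested apart. Transcripts were matched by identifier to GENCODE 29 for gene, class and structure. This placed 169754 of 188753 (89.93%), holding 97.0% to 98.3% of the TPM in the fractionation and 97.4% to 97.6% in whole cells. Gene levels are sums of matched transcripts.

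Tests used limma 3.58.1 in R 4.3.3 (statmod 1.5.0) with a mean per group over the 12 libraries of a table, a mean-variance trend, robust moderation and Benjamini-Hochberg adjustment over all features, at a threshold of 0.05. Gene levels were log2(TPM + 1) at a mean of at least 1 TPM, transcripts log2(TPM + 0.5) at a mean of at least 1 TPM, and class ratios log2((class + 0.5)/(coding + 0.5)) where the gene averaged 5 TPM and the class 0.5 TPM. Fold changes on these scales understate changes of low features. Errors are SE from limma unless called SD. The tests were checked on simulated data. The named genes are the 9 kinases and, for pathway lists, genes that passed with the smallest adjusted p in their list. The members and lists were chosen with earlier results of these data known. The alternatives were a batch block, another pseudocount, no filter, median centring (for ratios, all other TPM of the gene in the denominator), no trend or robust step, and leaving out each library. Deviations of same-batch libraries correlated above a limit of 0.1 in 30 of 30 fractionation pairs (0.531 to 0.836) and 12 of 18 whole-cell pairs (-0.302 to 0.639 over all). With 2 replicates per group the deviations mirror each other, so each fractionation value appears in both batches and the pairs are not independent. In whole cells control siRNA replicate 2 correlated negatively within its batch B (-0.302, -0.175 and -0.262). With the DMSO, TAOK2 siRNA and compound 2 libraries of batch A it correlated at 0.339, 0.361 and 0.338. The batch label thus did not pair that library.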

Additional observations from a re-analysis of the deposited data

Results flagged for a closer look

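PRPF4B differed in direction between the 2 experiments after TAOK2 knockdown. In whole cells its mean log2 difference was -0.14 (-0.11, -0.12 and -0.18 in batches A, B and C), and in total RNA of the fractionation it was 0.26 (0.09 and 0.43 in batches 1 and 2). In nuclear RNA the batch differences were -0.21 and -0.18, as in whole cells below 0, and in cytoplasmic RNA -0.33 and 0.15, so the contrast is between whole cells and total RNA. Neither value passed limma's test, the tables were quantified separately, and the difference was not tested.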

How the results depend on the processing

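With TPM alone the read counts behind low transcripts are unknown, and 2 libraries per group limit the fractionation. Among single results, 1142 values under other settings stayed on their side of the threshold, 20 lost and 7 gained a call. A sign change was counted as reversed only where the value passed before or after it. By that rule 1 reversed: SRPK2 under compound 2, at 0.49 after median centring. Values that passed on neither side could change sign within the 1142. CLK4 under compound 2 did so, from -0.34 to 0.17 after centring. When 1 library was left out, 1290 stayed on their side, 66 lost and 8 gained a call. With a pseudocount of 0.1 TPM, retained-intron ratios differing between knockdown and compound 2 numbered 1 instead of 2. Without a filter on low values, 38 transcripts instead of 17 passed between nuclei and cytoplasm, and 1 instead of 0 passed after knockdown in nuclei. The cause was not tested.

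Leaving out 1 library gave 1 to 2 kinases passing after knockdown in whole cells, 6 to 7 under compound 2, 0 to 0 for control siRNA against DMSO, 6 to 8 for the difference of effects and 2 to 4 between nuclei and cytoplasm. For retained-intron ratios the ranges were 3 to 4 (compound 2), 1 to 3 (difference of effects) and 5 to 7 (nuclei against cytoplasm), for decay-class ratios 4 to 5, 3 to 4 and 1 to 2. For transcripts they were 1 to 4 (knockdown), 29 to 34 (compound 2) and 13 to 15 (nuclei against cytoplasm), and counts of 0 elsewhere ranged from 0 to 0. The batch, as a replicate block, gave 2 genes after knockdown, 7 under compound 2, 7 for the difference and 5 between nuclei and cytoplasm, and 4, 32 and 21 transcripts for knockdown, compound 2 and nuclei. Apart from SRPK1 between fractions (adjusted p = 0.0411), the block changed no other gene or ratio call.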
